A study of Mus musculus with 4 samples.

Results

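The 10 basement membrane genes described here are Col4a1, Col4a2, Col15a1, Col18a1, Lama4, Lamb1, Lamc1, Nid1, Nid2 and Hspg2. They were taken by gene name from a deposited table of 47643 mouse genes, and all 10 were found. The table compares TdTomato-positive with TdTomato-negative cells sorted from the femoral periosteum, the cell layer that covers bone. All mice carried 1 allele of the tamoxifen-inducible driver Sox9CreErt2 (Sox9tm1(cre/ERT2)Haak), in which the Sox9 locus controls Cre, and 1 allele of the Cre-dependent Td-Tomato reporter (Gt(ROSA)26Sortm14(CAG-tdTomato)Hze). Both groups therefore share both alleles and the tamoxifen, given as 3 intraperitoneal injections of 100 µL at 20 mg/mL, 48 h apart. Femora were intact and were taken 2 weeks after the last injection, and a 2 h liberase digest (100 µg/mL) of the shafts gave the cells that were sorted on TdTomato. About 10000 cells of each kind came from 18 femora of 9 mice in 2 collections. Ages of the animals are not given here. There are 2 TdTomato-positive and 2 TdTomato-negative libraries of 75-nucleotide paired reads, with each group represented once per collection. Mice were pooled, so any p-value measures the spread between pooled libraries, not between animals.

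Basement membranes are thin extracellular sheets under epithelia and endothelia and around muscle fibres, fat cells and Schwann cells. Laminins, trimers of an α, a β and a γ chain, polymerise at the cell surface, collagen IV forms a second, covalently crosslinked network, and nidogens and the heparan sulfate proteoglycan perlecan connect both. In bone and periosteum, basement membranes are known mainly from blood vessels, where laminin with the α4 chain lies under the endothelium, and from nerves. Collagens XV and XVIII are multiplexins, which sit at the border between the basement membrane and the matrix beyond it, and endostatin is cut from the end of collagen XVIII.

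The table gives group means, the highest value and a log difference for each gene, from which the values of the 4 libraries were solved. The solution implied depths of 32.0 and 41.6 M reads (M, 1e+06) for the TdTomato-positive libraries, and 17.0 and 74.0 M for the TdTomato-negative ones. Libraries are named by group and depth, since no value records the collection. Levels are RPKM, reads per kilobase and per 1 M reads, per kilobase of genomic span unless exon length is named, and reads are whole gene totals. The TdTomato-negative values could be tied to a library for 10 of 10 genes, and the TdTomato-positive ones for 4, namely Col4a2, Col15a1, Lama4 and Lamc1. For the other 6, both ways of giving the pair of values to the TdTomato-positive libraries are printed.

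The collagen IV genes are shown first because their transcription units overlap. Col4a1 (ENSMUSG00000031502.10, chr8:11198423-11312826, minus strand) and Col4a2 (ENSMUSG00000031503.13, chr8:11312805-11449287, plus strand) encode the α1 and α2 chains and are transcribed away from each other from a common start region. Their annotated ends overlap by 22 bases, on opposite strands, at chr8:11312805-11312826. The plus-strand sequence of those bases, from RefSeq on GRCm38.p6 (the mm10 build), runs from the start site of Col4a2 to that of Col4a1, and the capitals mark the overlap.
Col4a1/Col4a2 start overlap: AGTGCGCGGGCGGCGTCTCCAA
Hspg2 and Nid1 are shown next: Nid1 has opposite signs in the deposited log difference and ratio of means, and Hspg2 has the same sign in both, as described further on. That contrast rests on the listed means, which carry a second division by depth. As plain means of RPKM, both genes were higher in TdTomato-positive libraries (1.66 against 1.45 for Nid1, 1.32 against 0.454 for Hspg2). A link between the sequences and the levels was not tested. Their upstream sequences (RefSeq, GRCm38.p6, plus strand) cover chr4:137468553-137468768 for Hspg2, 216 bases, and chr13:13437352-13437601 for Nid1, 250 bases. Each ends where the annotated gene begins. Capitals mark the GC box GGGCGG and the CCAAT box, on either strand.
Hspg2: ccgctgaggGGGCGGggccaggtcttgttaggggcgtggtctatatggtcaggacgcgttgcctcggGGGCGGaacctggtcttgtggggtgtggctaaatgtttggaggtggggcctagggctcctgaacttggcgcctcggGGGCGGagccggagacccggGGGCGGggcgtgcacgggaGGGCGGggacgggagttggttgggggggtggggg
Nid1: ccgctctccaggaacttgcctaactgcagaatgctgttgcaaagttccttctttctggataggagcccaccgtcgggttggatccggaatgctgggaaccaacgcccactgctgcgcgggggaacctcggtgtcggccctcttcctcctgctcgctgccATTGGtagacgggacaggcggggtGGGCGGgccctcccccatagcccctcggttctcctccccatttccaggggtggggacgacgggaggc
The Hspg2 sequence holds 5 GC boxes and 0 CCAAT boxes, and the Nid1 sequence holds 1 of each. RefSeq promoter windows matched 7 of the 10 genes, in 8 windows, and the 250 bases before the start were searched. GGGCGG on either strand was in 32.7% of all 32851 promoter windows, CCAAT in 33.8% and TATAAA, the TATA box, in 12.4%. None of the 8 windows of these genes held TATAAA, 5 held GGGCGG and 5 held CCAAT, and a match or its lack is a description of these letters only. The windows of Col4a1 and Col4a2 share 78 bases.

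The TdTomato-negative library of 74.0 M reads stood apart from the other 3 libraries. It had the lowest value of the 4 libraries for 10 of 10 basement membrane genes in every assignment, against 21.2% of the 17117 genes that reached 10 reads in 2 or more libraries (the measured genes). Of 16 markers of periosteal stroma, 12 could be tied to the TdTomato-negative libraries, and all 12 had their lowest value of the 4 libraries in that of 74.0 M, from 0.00118 to 0.557 RPKM. The other 4 stromal markers had higher values there: 12.9 RPKM for Pi16, or 125.6 in the other assignment, 0.742 or 3.56 for Dpp4, 6.65 or 465 for Gsn and 1.70 or 303.6 for Ly6a. The 3 stromal markers resolved in both groups had a summed RPKM of 245.3 and 43.8 in the TdTomato-positive libraries of 32.0 and 41.6 M reads, and of 93.1 and 0.114 in the TdTomato-negative libraries of 17.0 and 74.0 M. For the 6 resolved of 16 leukocyte markers the sums were 19.0 and 80.4 in the TdTomato-positive libraries, and 52.9 and 195.1 in the TdTomato-negative ones, highest in the library of 74.0 M. In bulk libraries like these, fewer cells of a type and less RNA per cell cannot be told apart. Folds of the 10 basement membrane genes are therefore given below with and without that library. The medians without it of the lists of further basement membrane, receptor, crosslinking, protease and vessel growth genes stand in the last section.

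In the collagen IV pair, Col4a1 had 3.98 and 1.82 RPKM in the TdTomato-positive libraries of 32.0 and 41.6 M reads, or 1.37 and 5.21 in the other assignment, against 3.45 and 0.0274 in the TdTomato-negative libraries of 17.0 and 74.0 M. Its partner Col4a2 had 2.09 and 0.811 RPKM in the TdTomato-positive libraries, and 1.31 and 0.0147 in the TdTomato-negative ones. The TdTomato-negative library of 17.0 M reads thus lay between the TdTomato-positive libraries for both genes, and the groups overlapped. Behind the Col4a2 values are 9115 and 4607 reads in the TdTomato-positive libraries, and 3039 and 148 in the TdTomato-negative ones. As group means, Col4a2 had 1.45 ± 0.904 RPKM in TdTomato-positive and 0.663 ± 0.917 RPKM in TdTomato-negative libraries (SD, n = 2 each). The authors' deposited table gave a log2 difference of mean logs of 2.02 for Col4a1 (p = 0.156 in the authors' lognormal model) and 1.77 for Col4a2 (p = 0.214 in that model). The step-up FDR of both was 1.00 in the authors' deposited table.

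Since collagen IV is a trimer of 2 α1 chains and 1 α2 chain, the ratio of both transcripts was also taken, per kilobase of exon. The ratio of Col4a1 to Col4a2 was 1.41 and 1.67 in the TdTomato-positive libraries, against 1.95 and 1.39 in the TdTomato-negative ones. Within the TdTomato-negative pair the levels differed by 125.7-fold for Col4a1 and 89.5-fold for Col4a2, while this ratio stayed within 1.39 to 1.95 over all 4 libraries. The difference between groups was -0.10 on the log2 scale (exact permutation test over libraries, two-sided, p = 1.00; the smallest p this design allows is 0.333). In the other assignment of Col4a1 the TdTomato-positive ratios were 0.488 and 4.77, so the narrow range holds for 1 of the 2 assignments.

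The laminin chains were Lama4 (ENSMUSG00000019846.11, chr10:38965515-39110188, plus strand), Lamb1 (ENSMUSG00000002900.15, chr12:31265234-31329644, plus strand) and Lamc1 (ENSMUSG00000026478.14, chr1:153218922-153332786, minus strand). They encode α4, β1 and γ1, the chains of laminin-411. Lama4 had 0.548 and 0.153 RPKM in the TdTomato-positive libraries of 32.0 and 41.6 M reads, against 0.307 and 0.00252 in the TdTomato-negative libraries of 17.0 and 74.0 M. Lamb1 had 1.39 and 0.316 RPKM in the TdTomato-positive libraries, or 0.220 and 1.84 in the other assignment, against 1.19 and 0.0136 in the TdTomato-negative ones. Lamc1 had 1.12 and 0.253 RPKM in the TdTomato-positive libraries, against 0.982 and 0.140 in the TdTomato-negative ones. For each chain the TdTomato-negative library of 17.0 M reads lay between the TdTomato-positive values. Lamc1 kept the most signal of the 10 genes in the TdTomato-negative library of 74.0 M reads, with 1180 reads, against 27 for Lama4 and 65 for Lamb1. The authors' deposited table gave log2 differences of 0.95 for Lama4, 1.00 for Lamb1 and 0.32 for Lamc1, with p = 0.510, 0.482 and 0.820 in the authors' lognormal model.

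Per kilobase of exon, Lama4 stood to Lamc1 at 0.426 and 0.526 in the TdTomato-positive libraries, against 0.273 and 0.0157 in the TdTomato-negative ones. Both TdTomato-positive ratios lay above both TdTomato-negative ones, by a mean of 2.86 on the log2 scale (exact permutation test, two-sided, p = 0.333, the smallest this design allows). Lamb1 stood to Lamc1 at 0.586 and 0.589 in the TdTomato-positive libraries, against 0.570 and 0.0459 in the TdTomato-negative ones, a mean log2 difference of 1.86 (exact permutation test, p = 0.333). In 3 of the libraries the β1 to γ1 ratio was thus within 0.570 to 0.589, and only in the TdTomato-negative library of 74.0 M reads did γ1 stand apart. In the other assignment of Lamb1 the TdTomato-positive ratios were 0.0925 and 3.43, and the p was 0.667 in the same exact permutation test. Lamc1 overlaps the processed pseudogene Gm8818, on the opposite strand, and Gm38009, on its own strand, which had up to 376 and 116 reads in a library. Strand-specific counting is not stated in the labels, so those reads cannot be assigned with certainty.

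Of the other laminin chains, all outside the 10 genes, Lamb2 was the most abundant per kilobase of exon, with 34.0 and 12.8 RPKM in the TdTomato-positive libraries and 17.2 and 0.380 in the TdTomato-negative ones. Lamb2 encodes β2, which replaces β1 in laminins of muscle and vessels, and exceeded Lamb1 in each library and assignment. Lama2, the α2 chain of muscle and nerve laminin, had 6.04 and 1.24 RPKM per exon length in the TdTomato-positive libraries, and 3.81 and 0.00414 in the TdTomato-negative ones. Lama2 and Lama4 were thus at like levels and had the same order of libraries. The epithelial chain Lamb3 went the other way, with 0.289 and 0.600 RPKM per exon length in the TdTomato-positive libraries, against 0.873 and 1.08 in the TdTomato-negative ones. Lama1 had 6 reads in 1 library and 0 in the other 3.

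**Figure D1:**
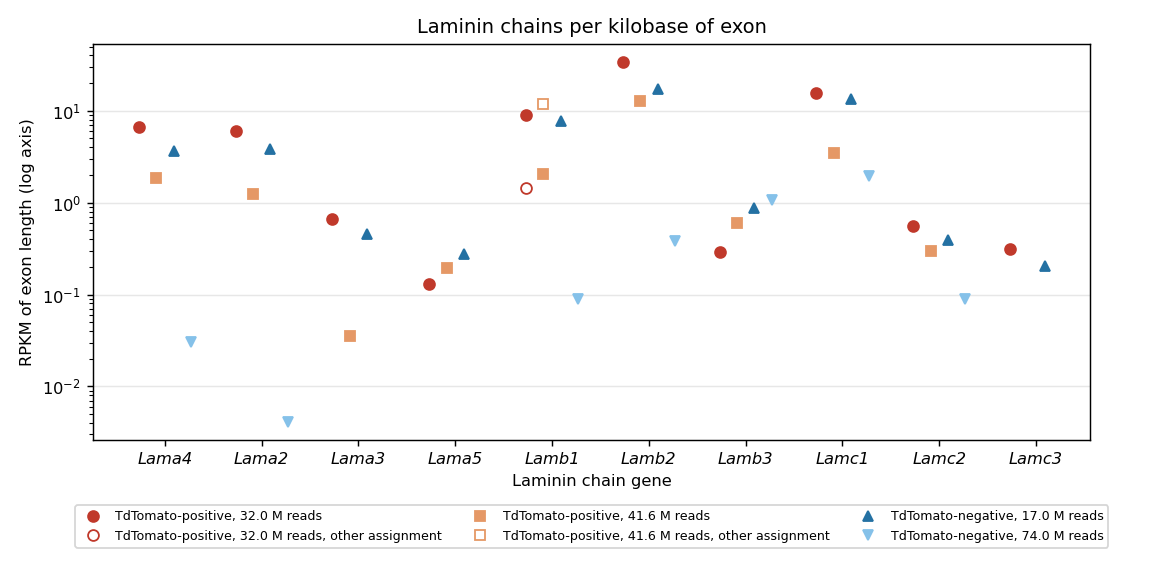
RPKM per kilobase of exon (log axis) of 10 laminin chain genes in the 4 libraries. Open symbols show the other assignment of Lamb1, and values of 0 (Lama3, Lama5 and Lamc3 in the TdTomato-negative library of 74.0 M reads, and Lamc3 in the TdTomato-positive library of 41.6 M) are not drawn. Lama4, Lama2, Lamb1, Lamb2 and Lamc1 reach 3.69 RPKM or more in the TdTomato-negative library of 17.0 M reads, and at most 1.93 in that of 74.0 M.

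The linkers were Nid1 (ENSMUSG00000005397.7, chr13:13437602-13512275, plus strand) and Nid2 (ENSMUSG00000021806.3, chr14:19751257-19811787, plus strand), which encode nidogen-1 and nidogen-2, and Hspg2 (ENSMUSG00000028763.17, chr4:137468769-137570630, plus strand), which encodes the core protein of perlecan. Nid1 had 2.36 and 0.960 RPKM in the TdTomato-positive libraries of 32.0 and 41.6 M reads, or 0.714 and 3.10 in the other assignment, against 2.90 and 0.00633 in the TdTomato-negative libraries of 17.0 and 74.0 M. Nid2 had 0.424 and 0.522 RPKM in the TdTomato-positive libraries, or 0.378 and 0.582, against 0.643 and 0.00938 in the TdTomato-negative ones. Nid2 was the one gene of the 10 whose value in the TdTomato-negative library of 17.0 M reads exceeded both TdTomato-positive values in both assignments. Hspg2 had 2.14 and 0.505 RPKM in the TdTomato-positive libraries, or 0.365 and 2.82, against 0.905 and 0.00199 in the TdTomato-negative ones, where 15 reads were counted in the library of 74.0 M. The authors' deposited table gave log2 differences of 1.47 for Nid1, 0.96 for Nid2 and 1.82 for Hspg2, with p = 0.300, 0.500 and 0.201 in the authors' lognormal model. Nid2 overlaps 2700060E02Rik by 386 bases on the opposite strand, a gene of up to 2999 reads, and its own reads did not come out whole in either group (661.1 and 42.0 in the TdTomato-negative libraries).

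Nidogen-1 and nidogen-2 can stand in for each other in mice, so their ratio was taken too. Per kilobase of exon, Nid1 stood to Nid2 at 5.12 and 1.69 in the TdTomato-positive libraries, against 4.15 and 0.621 in the TdTomato-negative ones. Over the 4 assignments the TdTomato-positive ratios ran from 1.52 to 5.73. The groups overlapped, and the mean log2 difference of 0.87 had p = 0.667 in an exact permutation test over libraries.

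The multiplexins were Col15a1 (ENSMUSG00000028339.17, chr4:47208161-47313167, plus strand) and Col18a1 (ENSMUSG00000001435.14, chr10:77052178-77166548, minus strand). Col15a1 had 1.18 and 0.0977 RPKM in the TdTomato-positive libraries of 32.0 and 41.6 M reads, against 0.286 and 0.000257 in the TdTomato-negative libraries of 17.0 and 74.0 M. It varied most within both groups: 3950 and 427 reads stood in the TdTomato-positive libraries, and 510 and 2 in the TdTomato-negative ones. Col18a1 had 0.603 and 0.569 RPKM in the TdTomato-positive libraries, or 0.414 and 0.815, against 0.338 and 0.00839 in the TdTomato-negative ones. Col18a1 was the one gene of the 10 with both TdTomato-positive values above both TdTomato-negative values in both assignments. Such a separation held for 15.5% of the 17117 measured genes, so 1 of 10 is close to the background. The authors' deposited table gave log2 differences of 1.31 for Col15a1 and 1.61 for Col18a1, with p = 0.359 and 0.260 in the authors' lognormal model. Col18a1 overlaps Slc19a1 by 8825 bases on the opposite strand, a gene of up to 647 reads.

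The ratio of Col15a1 to Col18a1 per kilobase of exon was 1.98 and 0.174 in the TdTomato-positive libraries, or 2.89 and 0.122 with the other assignment of Col18a1. It was 0.858 and 0.0312 in the TdTomato-negative libraries. Col15a1 exceeded Col18a1 in 1 of the 4 libraries, the TdTomato-positive one of 32.0 M reads. The mean log2 difference between groups was 1.85 (exact permutation test, two-sided, p = 0.667).

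**Figure D2:**
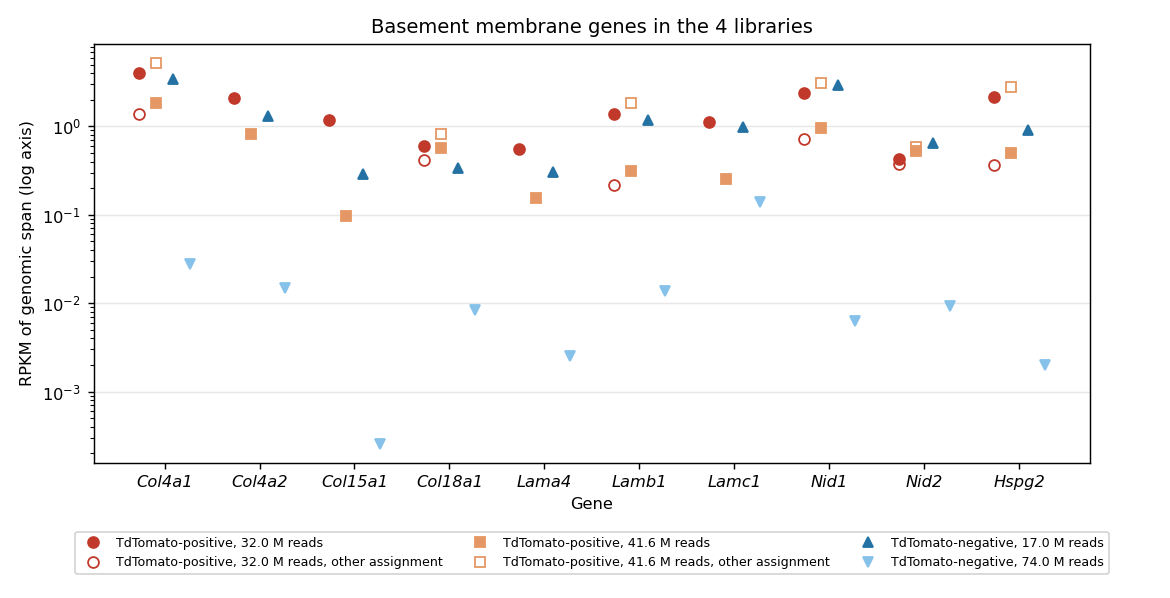
RPKM of genomic span (log axis) of the 10 basement membrane genes in each library. Filled symbols show the first assignment and open symbols the other one for the 6 genes whose TdTomato-positive values could not be tied to a library. The TdTomato-negative library of 74.0 M reads is the lowest for all 10 genes, and the TdTomato-negative library of 17.0 M lies among the TdTomato-positive values for most.

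Across the 10 genes, no group difference passed the test: 0 were called higher and 0 lower at a step-up FDR of 0.05 in the authors' deposited table, where the FDR of each was 1.00. Over all 47643 genes the authors' deposited table called 3 higher (0.0063% of the genes) and 0 lower (0.0%). Before adjustment, 0 of the 10 genes and 426 of all genes (0.894%) had a p under 0.05 in the same table. Limma on log2(RPKM + 1), run on the 6860 genes with 1 RPKM or more in 2 libraries, called 0 genes, and 768 reached an unadjusted p under 0.05. Of the 10 genes, Col4a1, Col4a2, Lamb1 and Nid1 were in that fit, with log2 fold changes of 0.81, 0.63, 0.25 and 0.37 and a lowest limma adjusted p of 0.613. With the other assignment of unresolved genes, limma called 0 of 7070 genes, and 59 reached an unadjusted p under 0.05. For unresolved genes the first assignment is the one whose libraries differ less. That choice narrows the spread within groups, so the 768 depends on it. A p that misses the threshold does not show that the levels were alike.

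The 2 deposited summaries differed in direction for some genes, and the listed means carry a second division by depth, described below. On the log scale all 10 genes had a positive difference in the authors' deposited table, from 0.32 to 2.02 with a median of 1.39, where the median of the 17117 measured genes was 0.02 and 51.0% of them were above 0. The deposited logs are of RPKM plus an offset of 0.1, which raises low values and so shrinks differences between them. The ratio of the listed group means, in contrast, was below 1 for 5 of the 10 genes, against 64.1% of the measured genes, and its median was -0.11 on the log2 scale, against -0.26. Those 5 were Col4a1, Lamb1, Lamc1, Nid1 and Nid2, and their sign was opposite in both summaries. Such a pair of signs was seen in 16.1% of the measured genes.

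Multiplied by the genomic span, the listed means of Nid1 were 51.2 in TdTomato-positive and 89.1 in TdTomato-negative cells in the authors' deposited table, a log2 ratio of -0.80 beside its log difference of 1.47. Those levels are RPKM plus 0.1 divided by depth a second time, an arbitrary unit. For Hspg2 the listed levels were 42.3 in TdTomato-positive and 30.3 in TdTomato-negative cells, a log2 ratio of 0.48 beside a log difference of 1.82. Col15a1 had the highest ratio of listed means, 1.86, with levels of 22.4 in TdTomato-positive and 12.1 in TdTomato-negative cells. Col4a1 had the highest listed levels of the 10 genes, 86.8 in TdTomato-positive and 105.3 in TdTomato-negative cells. The second division by depth weights a library of fewer reads more, here the TdTomato-negative library of 17.0 M. Without that weighting, as plain means of RPKM, Nid1 had 1.66 ± 0.989 in TdTomato-positive and 1.45 ± 2.05 in TdTomato-negative libraries (SD, n = 2 each), so the SD of the TdTomato-negative pair exceeded its mean. The other genes with opposite signs also had the higher plain mean in TdTomato-positive libraries. These means were 2.90 against 1.74 for Col4a1, 0.853 against 0.600 for Lamb1, 0.687 against 0.561 for Lamc1 and 0.473 against 0.326 for Nid2.

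**Figure D3:**
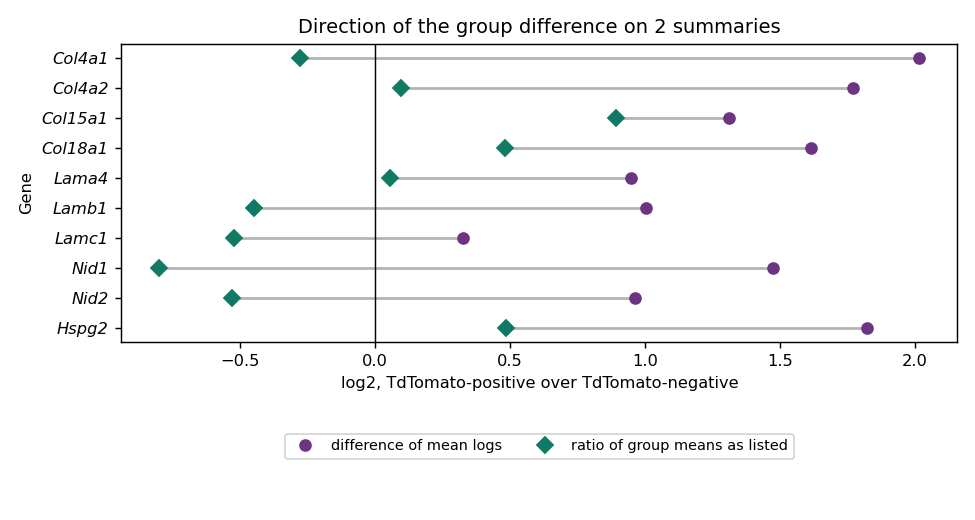
log2 difference of TdTomato-positive over TdTomato-negative cells for each of the 10 genes, as the difference of mean logs (circles) and as the ratio of the group means as listed (diamonds). All circles lie above 0, from 0.32 for Lamc1 to 2.02 for Col4a1, and 5 of the 10 diamonds lie below 0.

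Within the TdTomato-negative group, the library of 17.0 M reads exceeded that of 74.0 M for each of the 10 genes, by a median of 105.7-fold. The ratio was lowest for Lamc1, at 7.01 (95% exact interval for counting error 6.52 to 7.55), and was 458.1 for Nid1 (interval 328.8 to 658.8). For Col15a1, with 2 reads in the deeper library, it was 1112 (interval 306.2 to 9205). Reads copied by PCR are not independent molecules, so these intervals cover counting error only. Within the TdTomato-positive group, the 4 resolved genes were all higher in the library of 32.0 M reads than in that of 41.6 M, by 2.58-fold for Col4a2, 3.58-fold for Lama4, 4.42-fold for Lamc1 and 12.0-fold for Col15a1. For those 4 genes the TdTomato-negative library of 17.0 M lay below the first and above the second.

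Folds were also fitted with 1 library left out at a time. The TdTomato-negative library of 74.0 M reads had the lowest value for all 10 genes. Leaving it out thus had to lower each fold, and leaving out the other TdTomato-negative library had to raise it. Only the sizes of these shifts were open. These limma fits were on log2(RPKM + 0.1) over the 17117 measured genes, in the first assignment only. With all 4 libraries the folds of the 10 genes were positive, from 0.37 for Lamc1 to 2.06 for Col4a1. Without the TdTomato-negative library of 74.0 M reads, the log2 fold was below 0 for 6 of the 10 genes, against 42.5% of the measured genes. It was then -0.34 for Col4a1, -0.71 for Lamb1, -0.72 for Lamc1, -0.90 for Nid1, -0.38 for Nid2 and -0.01 for Lama4. Col18a1 had the highest value of the 10 in that fit, 0.65, followed by Col15a1 with 0.38, Hspg2 with 0.21 and Col4a2 with 0.0011. Without the TdTomato-negative library of 17.0 M the folds ran from 1.45 for Lamc1 to 4.46 for Col4a1. Without the TdTomato-positive library of 32.0 M, Lamc1 was below 0, at -0.53, as 52.7% of the measured genes were, and Col15a1 stood at 0.01, against 2.70 for Col15a1 without the TdTomato-positive library of 41.6 M. None of these 40 fits passed the threshold, with a lowest limma adjusted p of 0.458. Each such fit leaves 1 library in a group, whose spread is assumed to be like that of the other group.

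**Figure D4:**
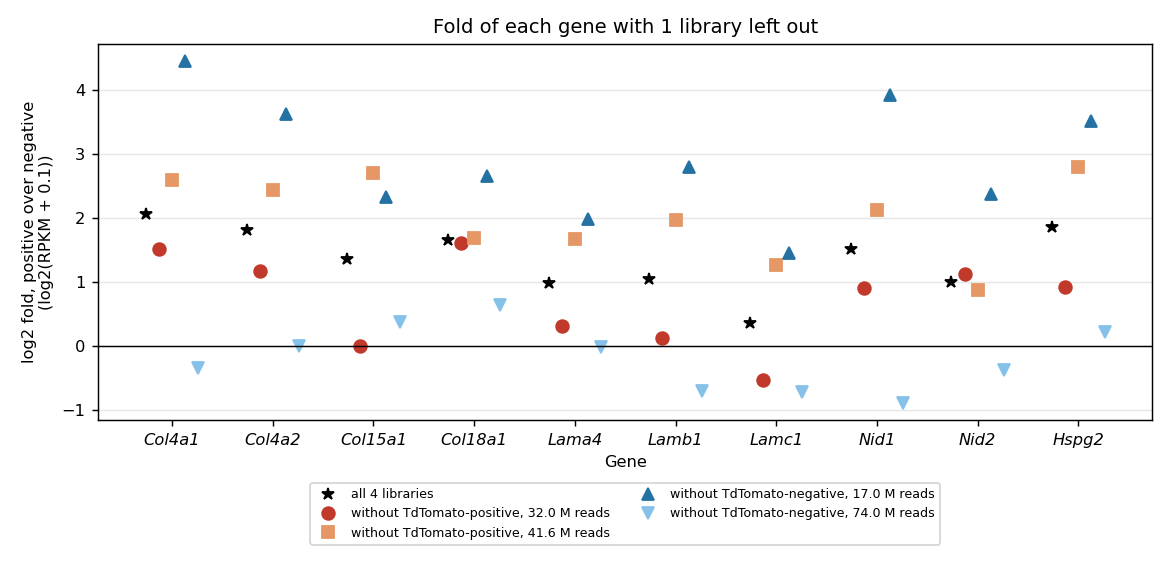
log2 fold of TdTomato-positive over TdTomato-negative cells on the log2(RPKM + 0.1) scale, for each gene with all 4 libraries (stars) and with 1 library left out (other symbols). All values are in the first assignment. All values without the TdTomato-negative library of 17.0 M reads are 1.45 or more, and 6 of the 10 values without that of 74.0 M are below 0.

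Per kilobase of exon, and in the first assignment, the order of the 10 genes in the TdTomato-positive library of 32.0 M reads was led by Col4a1 at 61.0 RPKM, Col4a2 at 43.1 and Nid1 at 25.4. Col15a1 (19.5), Lamc1 (15.4), Hspg2 (15.2), Col18a1 (9.82), Lamb1 (9.03), Lama4 (6.57) and Nid2 (4.96) followed, in RPKM per exon length. In the TdTomato-negative library of 17.0 M reads, Col4a1 at 52.8 RPKM, Nid1 at 31.2 and Col4a2 at 27.0 were again the first 3, and Lama4 was last at 3.69. The ratio of neighbours in the first order was then followed through the 4 libraries and both assignments. None of the 9 neighbouring pairs (0 of 9) kept its order in all of them, so neighbours are not ranked here. Col4a1 exceeded Col4a2, Nid1 exceeded Col15a1 and Lamb1 exceeded Lama4 in 3 of the 4 libraries in every assignment. Col15a1 exceeded Lamc1 in 1 library, the TdTomato-positive one of 32.0 M reads, and was below it in the other 3.

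The endothelial, pericyte and smooth muscle, skeletal muscle and Schwann cell markers had their lowest median in the TdTomato-negative library of 74.0 M reads. The median of the 3 resolved fat cell markers was 0.0423 RPKM there, and lowest in the TdTomato-positive library of 32.0 M, at 0.0272. Their summed RPKM was lowest in the TdTomato-negative library of 74.0 M, however. It was 0.164 there, against 2.635 in that of 17.0 M and 0.815 and 1.457 in the TdTomato-positive libraries. Of the 5 fat cell markers measured, 2 had a positive log difference, with a median of -0.26 in the authors' deposited table. Of 20 endothelial markers, 19 had a positive log difference, with a median of 1.07, and 0 were called at the FDR of 0.05 in the authors' deposited table. The 19 resolved endothelial markers had a summed RPKM of 33.6 and 66.3 in the TdTomato-positive libraries of 32.0 and 41.6 M reads, against 37.6 and 2.00 in the TdTomato-negative libraries of 17.0 and 74.0 M, where Cldn5 and Flt4 were at 0 reads. Cldn5, a tight junction protein of endothelium and the most abundant of these markers, had 11.1 and 21.0 RPKM in the TdTomato-positive libraries, and 13.7 and 0 in the TdTomato-negative ones. In that library of 74.0 M reads, 9 of the 10 basement membrane genes were at 0.0274 RPKM or less, and Lamc1 was at 0.140. Within the TdTomato-positive pair, however, 17 of the 19 resolved endothelial markers were higher in the library of 41.6 M reads, whereas 0 of the 4 resolved basement membrane genes were. Of the 6 unresolved ones, Nid2 was higher in the library of 41.6 M in both assignments, and the order of the other 5 turned with the assignment. In other lists, 0 of 8 resolved crosslinking genes, 1 of 10 proteases and inhibitors and 6 of 6 leukocyte markers were higher in the library of 41.6 M. The share over all measured genes is not given here, so this order does not single out a cell type.

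The 12 resolved of 14 pericyte and smooth muscle markers had a summed RPKM of 57.9 and 25.3 in the TdTomato-positive libraries. Their sums were 30.5 and 1.26 in the TdTomato-negative ones. The marker Ndufa4l2 alone held 35.7 of the 57.9. The medians had another order, with 0.499 and 0.969 RPKM in the TdTomato-positive libraries, against 1.415 and 0.00867 in the TdTomato-negative ones. Of the 12, 7 were higher in the TdTomato-positive library of 41.6 M reads than in that of 32.0 M. In the TdTomato-negative library of fewer reads, 6 of the 12 exceeded both TdTomato-positive values. Ndufa4l2 and Des, of pericytes and of muscle filaments, had 35.7 and 9.55 RPKM and 7.88 and 6.18 RPKM in the TdTomato-positive libraries, against 8.49 and 0 and 9.82 and 0.0328 in the TdTomato-negative ones. The 7 resolved of 12 skeletal muscle markers summed to 27.6 and 29.5 RPKM in the TdTomato-positive libraries, against 19.5 and 0.648 in the TdTomato-negative ones. Myod1 held 13.9 and 22.5 RPKM of the TdTomato-positive muscle sums, and only 1 of the 7 was higher in the library of 41.6 M reads. The 9 resolved of 10 Schwann cell markers summed to 3.92 and 1.55 against 1.50 and 1.00. Among them Mbp went the other way, with 0.0600 and 0.0659 RPKM in the TdTomato-positive libraries, against 0.307 and 0.775 in the TdTomato-negative ones. Genes at 0 reads in the TdTomato-negative library of 74.0 M numbered 4 of the pericyte, 4 of the muscle and 5 of the Schwann cell markers. The 3 resolved stromal markers were all higher in the TdTomato-positive library of 32.0 M than in that of 41.6 M, as the 4 resolved basement membrane genes were. Col1a1, the main collagen of bone and periosteum, had 1290 and 154.5 RPKM in the TdTomato-positive libraries, or 118.6 and 1679 in the other assignment, against 188.7 and 0.557 in the TdTomato-negative ones. The part of endothelial, mural, muscle, nerve and stromal cells in the basement membrane values was not tested.

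**Figure D5:**
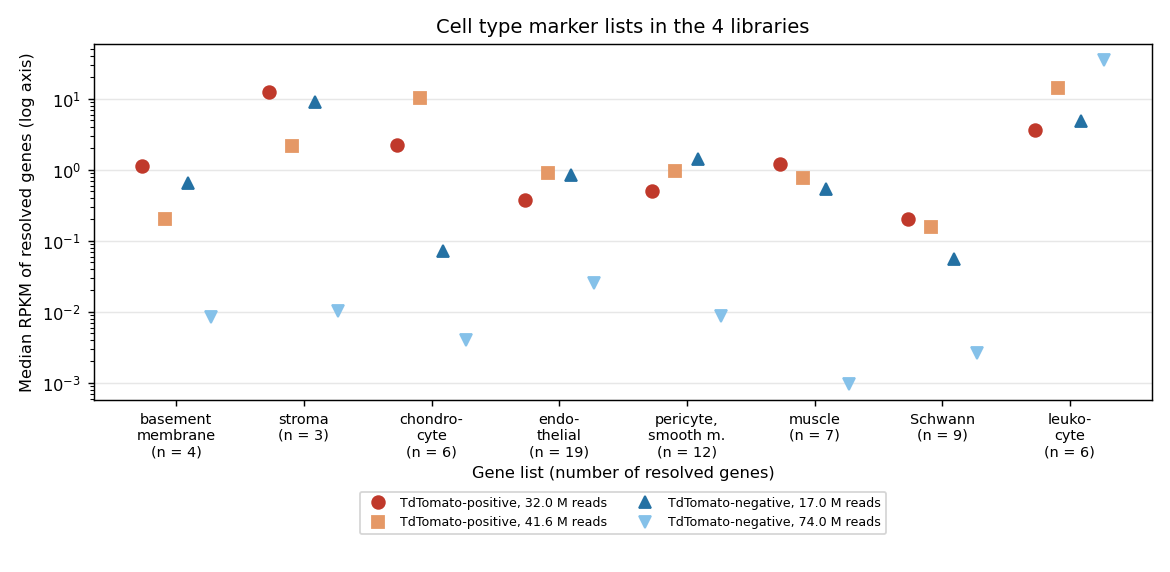
Median RPKM of genomic span (log axis) over the genes of each list whose library values are all resolved, in the 4 libraries, with the number of genes under each list. In the TdTomato-negative library of 74.0 M reads the lists of basement membrane, stromal, chondrocyte, endothelial, mural, muscle and Schwann cell genes have their lowest median, and the leukocyte list its highest.

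Chondrocyte markers, which Sox9 is known to drive, were the list with calls: Col2a1 and Mia were higher at the FDR of 0.05 in the authors' deposited table, 2 of 14, against 0.0063% of all genes. Mia had 0 reads in both TdTomato-negative libraries. Col2a1, the collagen of cartilage, had 94.6 and 68.7 RPKM in the TdTomato-positive libraries, or 52.8 and 123.2, against 0.219 and 0.00232 in the TdTomato-negative ones. The groups did not overlap for Col2a1, unlike for 9 of the 10 basement membrane genes.

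Among 30 further basement membrane genes, 0 were called in either direction in the authors' deposited table. Of the 29 measured, 21 had a positive log difference and 19 a ratio of listed means below 1, with a median log2 difference of 0.23. In every assignment, both TdTomato-positive values lay above both TdTomato-negative ones for 4 of the 29 genes, and below them for 4. Over the measured genes these shares were 15.5% and 13.1%. Sparc, a collagen-binding glycoprotein of basement membranes and bone, had 468.3 and 131.7 RPKM in the TdTomato-positive libraries, or 101.1 and 609.8, against 71.8 and 0.164 in the TdTomato-negative ones. Its groups did not overlap in either assignment, with a log2 difference of 5.79 and an FDR of 0.261 in the authors' deposited table. Tinagl1, a matricellular protein that binds laminin, had 1.54 and 2.94 RPKM in the TdTomato-positive libraries, against 4.16 and 4.88 in the TdTomato-negative ones, so its groups did not overlap in the opposite direction. The remaining collagen IV chains were low: Col4a3, Col4a4 and Col4a6 stayed at or below 0.322 RPKM per exon length in all 4 libraries. Col4a5 had 1.69 and 0.258 RPKM per exon length in the TdTomato-positive libraries, and 0.754 and 0 in the TdTomato-negative ones.

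Of 16 receptors that bind basement membranes, 0 were called, 13 had a positive log difference and the median was 0.92 in the authors' deposited table. Lgals1, galectin-1, had 118.2 and 79.7 RPKM in the TdTomato-positive libraries, against 48.9 and 26.0 in the TdTomato-negative ones, and the syndecan Sdc4 had 10.7 and 7.18 RPKM against 4.93 and 2.40. For neither gene did the groups overlap, and neither was near 0 in the TdTomato-negative library of 74.0 M. Among the 16 receptors, the groups separated in every assignment for 3 in the higher and 2 in the lower direction. Over the measured genes these shares were 15.5% and 13.1%. Rpsa, which encodes a ribosomal protein also known as a laminin receptor, had 120.3 and 104.6 RPKM in the TdTomato-positive libraries, or 80.3 and 156.7, against 49.0 and 75.1 in the TdTomato-negative ones, or 17.2 and 214.0. Its groups overlapped in some assignments. Integrin Itga6, a laminin receptor chain on endothelium and on leukocytes, had 0.120 and 0.179 RPKM in the TdTomato-positive libraries, against 0.249 and 0.278 in the TdTomato-negative ones, and Itga7, the laminin receptor chain of muscle and mural cells, had 1.25 and 0.478 against 0.515 and 0. Both integrins were chosen after their values were seen.

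Of 20 genes for folding, modification and crosslinking of matrix proteins, 0 were called and 15 had a positive log difference, with a median of 1.19 in the authors' deposited table. Serpinh1, the collagen chaperone Hsp47, had 165.3 and 38.5 RPKM in the TdTomato-positive libraries, or 29.6 and 215.3, against 63.1 and 0.294 in the TdTomato-negative ones. P4hb, a subunit of the collagen prolyl hydroxylase, had 45.3 and 35.0 RPKM in the TdTomato-positive libraries, or 26.9 and 59.0, against 29.0 and 30.3 in the TdTomato-negative ones. Ppib, a prolyl isomerase of the same compartment, had 34.3 and 33.8 RPKM, or 26.0 and 44.7, against 13.2 and 11.3 in the TdTomato-negative libraries, or 2.51 and 57.7. In the TdTomato-negative library of 74.0 M, P4hb thus stood at 30.3 RPKM, Ppib at 11.3 or 57.7 and Serpinh1 at 0.294. The cause of this difference was not tested. Peroxidasin, Pxdn, which forms the sulfilimine crosslinks of collagen IV, had 0.485 and 0.391 RPKM in the TdTomato-positive libraries, against 0.309 and 0.000170 in the TdTomato-negative ones, without overlap between groups. Pxdn was named after its values were seen. It was the only 1 of the 20 genes whose groups separated in every assignment. Over the measured genes 15.5% separated in the higher and 13.1% in the lower direction.

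Of 20 proteases and inhibitors that act on basement membranes, 0 were called and 16 had a positive log difference, with a median of 1.16 in the authors' deposited table. Mmp9, the gelatinase that cleaves collagen IV and is known from neutrophils and osteoclasts, went the other way: it had 7.49 and 5.30 RPKM in the TdTomato-positive libraries, or 4.05 and 9.78, against 43.9 and 118.1 in the TdTomato-negative ones, or 27.0 and 191.9. Its groups did not overlap, and the log2 difference was -3.54 (p = 0.0154 in the authors' lognormal model, FDR of 1.00). Of the 20 genes, 2 separated in every assignment in the higher direction and 1 in the lower. Over the measured genes these shares were 15.5% and 13.1%. The log difference was negative for 16 of 16 leukocyte markers, with 0 called and a median of -1.24 in the authors' deposited table. Of the measured genes, 51.0% had a positive one. The cell source of the Mmp9 values was not tested. The cathepsin Ctsl had 49.2 and 39.3 RPKM in the TdTomato-positive libraries, against 23.5 and 12.8 in the TdTomato-negative ones, and Ctsb had 45.5 and 53.2, or 40.9 and 59.2, against 30.7 and 23.1, or 5.21 and 134.0.

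Of 14 genes of vessel growth and growth factor signalling, 0 were called and 11 had a positive log difference, with a median of 1.05 in the authors' deposited table. The matricellular genes Cyr61 and Ctgf had 336.4 and 134.0 RPKM and 512.7 and 96.9 RPKM (or 74.4 and 667.6) in the TdTomato-positive libraries, against 93.6 and 0.472 and 128.4 and 0.117 in the TdTomato-negative ones. Vegfa, the main growth factor of endothelium, had 6.35 and 5.94 RPKM in the TdTomato-positive libraries, or 4.54 and 8.29, against 5.51 and 8.44 in the TdTomato-negative ones, and its groups overlapped. The groups thus overlapped for Vegfa as they did for most of the 10 basement membrane genes.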

How the data were processed

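Sorted cells of the femoral periosteum were measured by RNA sequencing in 2 TdTomato-positive and 2 TdTomato-negative libraries made with a SMARTer low-input kit, per the labels' protocols. STAR, Partek and the mm10 build are named in the submitters' processing notes, without versions. The deposited table has 47643 genes and 29 columns. Per the file headers, the authors give a group mean signal, the highest value and the sum over libraries (used as a score), the difference of means on the natural log scale, the ratio of means, a signed fold change (a score), and the p-value and FDR (step-up) of a shrunken lognormal model. Depth per library is stated in no header.

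From these, 4 library values per gene were solved, with 1 solution for each of 47643 genes. They matched RPKM per genomic span with 0.1 added and a second division by depth and span. No header states this scale or the depths, which rest on the values alone, and the solution was tested on simulated data. Reads in genes made up 85.9% and 65.2% of the depth in the TdTomato-positive libraries, and 70.3% and 84.3% in the TdTomato-negative ones. A value was tied to a library where it gave whole reads, within 0.01 reads plus 1e-07 of the reads and at most 0.05. A single whole value, within 0.002, or negative reads for the other choice also decided. Of 17117 measured genes (10 or more reads in 2 libraries), 11647 (68.0%) were resolved in both groups. Fits used the assignment whose libraries differ less, printed first.

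The authors' deposited p-value and FDR, two-sided at 0.05, are the main test. Alternatives used limma 3.58.1 in R 4.3.3 with Benjamini-Hochberg adjustment over all genes fitted, and pandas 2.3.3 in Python 3.11.15. The deposited log difference includes a constant from the division by depth, which puts the median of all 47643 genes at -0.04 on the log2 scale. Exon lengths are the union of GENCODE M21 exons on GRCm38.

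The genes and lists were chosen with earlier results of these data known. The naming rule takes all 10 genes and, from each list, genes past the FDR and the 3 with the highest mean level. From the cell type lists, only genes that a result turns on are named and the others are given by counts and sums. Laminin and collagen IV chains were also named as families. The 4 stromal markers not tied to a TdTomato-negative library, and genes said to be so in the text, were named after their values were seen. The titles give a collection number that both groups share, but the values do not record it, so the pairing of libraries could not be checked. Adipocyte markers were few: 5 of 8 were measured, with 0 called, 2 with a positive log difference and a median of -0.26.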

Additional observations from a re-analysis of the deposited data

How the results depend on the processing

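The authors' test called 3 genes higher over the whole table, and limma called 0 higher on log2(RPKM + 1), on log2(RPKM + 0.1), on resolved genes only, with the other assignment, with median-of-ratios scaling, and with 10 or more reads in 2 libraries, a filter chosen after seeing the data. Limma without a filter called 2 higher and 1 lower. Each fit that left out 1 library called 0 genes (range 0 to 0), with 676 to 1850 genes at an unadjusted p below 0.05. Of the 10 basement membrane genes, 0 were called under any alternative, with a lowest limma adjusted p of 0.336 over 85 fits. Their median log2 difference of 1.39 became 3.31 without the 0.1 offset. The cause of the other changes was not tested.

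Leaving out 1 library gave log2 differences of -0.34 to 4.46 for Col4a1, -0.0085 to 1.98 for Lama4, -0.71 to 2.79 for Lamb1, -0.72 to 1.45 for Lamc1, -0.90 to 3.92 for Nid1 and -0.38 to 2.38 for Nid2. These fits used the first assignment only. In it, the values below 0 are those without the TdTomato-negative library of 74.0 M reads, and Lamc1 was also below 0 (-0.53) without the TdTomato-positive one of 32.0 M. With the group means as listed, which carry the second division by depth, the sign turned for Col4a1 (-0.28), Lamb1 (-0.45), Lamc1 (-0.52), Nid1 (-0.80) and Nid2 (-0.53). The list medians also fell without the TdTomato-negative library of 74.0 M reads, in the same limma fits. They went from 0.96 to 0.17 for receptors, 1.23 to 0.34 for crosslinking genes and 1.20 to 0.22 for proteases and inhibitors. For vessel growth genes they went from 1.09 to 0.32, and for further basement membrane genes from 0.27 to -0.05.

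With the collection as a replicate block, fitted on the 11647 resolved genes, limma called 0 genes whether libraries of lower depth were paired with each other or with those of higher depth (1631 and 317 genes at an unadjusted p below 0.05). The lowest adjusted p of Col4a2, Col15a1, Lama4 and Lamc1 was 0.336 under the block in the one pairing and 1.00 in the other. Which pairing holds is not recorded. With 2 libraries per group precision is limited, and 9 of the 10 genes had 2 to 232 reads in the deepest library.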
